A study of Mus musculus with 12 samples.

Results

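The 111 genes described here encode the respiratory chain and the ATP synthase of the mitochondrion, with their dedicated assembly factors. They were chosen by name among the 21969 protein-coding rows of a table of 54447 rows. The rule used no measured values, but earlier results of these data were known when it was set. The names began with mt-Nd, mt-Co, mt-Cytb, mt-Atp, Nduf, Sdha to Sdhd, Uqcr, Cox4 to Cox8 or Atp5. Of these genes, 13 lie in the mitochondrial genome and 98 in the nucleus. RNA was sequenced from mouse embryonic fibroblasts (the NIH3T3 line in the study's methods) that carried N-VEGF or NLS-N-VEGF under a Tet-on promoter. N-VEGF is the amino-terminal part of a long VEGF protein, and in NLS-N-VEGF a nuclear localization sequence was added to it. Each population was grown without or with the inducer doxycycline (dox), which gave 4 groups of 3 libraries: NLS-N-VEGF no dox, NLS-N-VEGF dox, N-VEGF no dox and N-VEGF dox. Both populations had received the construct by lentivirus with puromycin selection, and no cells without a construct are among the samples used here. An action of dox itself and one of the induced protein therefore cannot be told apart. In each group, libraries 1 and 2 carried the label suffix _120519, and another library 2 carried the suffix _290419, whose meaning the labels do not state. Values are given in the order library 1 of suffix _120519, library 2 of suffix _120519, library 2 of suffix _290419. Nothing in the labels says that the 3 libraries of a group came from separate cultures, so the p-values measure the spread between these libraries, which may be technical.

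The respiratory chain passes electrons from NADH and succinate to oxygen through complexes I to IV and pumps protons across the inner mitochondrial membrane, and complex V (the ATP synthase) uses the proton gradient to make ATP. Complexes I, III, IV and V are assembled from subunits of both genomes, whereas complex II is built from nuclear-encoded subunits alone. Mitochondrial genes are transcribed from both strands of the circular genome as long transcripts that are cut at the tRNAs, so neighbouring mitochondrial RNAs share their origin and are not independent measurements. Doxycycline is a tetracycline, and tetracyclines are known to act on mitochondrial ribosomes.

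The libraries held 13549331 to 18982127 counts. The row of the construct insert held 5 to 12 counts in the 6 libraries without dox, 35 to 173 counts in NLS-N-VEGF cells with dox and 121 to 268 counts in N-VEGF cells with dox. Of 10 fibroblast markers, 9 had a median of at least 1 CPM (normalised counts relative to library size, after TMM scaling of the library sizes), and the tenth, Lum, was at 0 in 5 libraries. The summed level of 5 epithelial markers was at most 1.87 CPM, that of 4 endothelial markers at most 4.49 CPM and that of 3 haematopoietic markers at most 13.5 CPM. The muscle markers summed to 5.06 to 32.1 CPM, almost all of it Tnnt2, while Ckm had a median of 0. Both brown fat markers, Ucp1 and Cidea, summed to at most 0.214 CPM. Library 1 of N-VEGF no dox stood apart from the others. It held the highest of the 12 values for 45 of 90 nuclear members tested and the lowest for 15. Among the 13 mitochondrial members it held the lowest value for 7 and the highest for 2.

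Added up, the mitochondrially encoded subunits far exceeded the nuclear members. Together they took between 3.84% and 6.02% of all counts of a library, and the 98 nuclear members took between 1.06% and 1.26%. Per kilobase of exon, the mean levels of the 13 mitochondrial members ran from 1120.2 CPM per kb for mt-Nd5 to 9095 CPM per kb for mt-Co2, the second core subunit of cytochrome c oxidase. The levels of the 90 nuclear members that passed the filter on low counts ran from 0.748 CPM per kb for Ndufaf3 to 452 CPM per kb for Cox8a. Per kilobase, the ranges of the genomes thus did not overlap. In counts not scaled by length they did, with 362174 for nuclear Atp5b over all libraries against 107359 for mt-Nd4l. Exon lengths were the summed exons of all annotated transcripts, which understates the level of nuclear genes with long alternative exons.

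Within each genome the complexes differed in level. Among mitochondrial members the median was 1835 CPM per kb for the 7 subunits of complex I, 4932 CPM per kb for mt-Cytb (cytochrome b, the mitochondrial subunit of complex III), 8087 CPM per kb for the 3 of complex IV and 6765 CPM per kb for the 2 of complex V. Among nuclear members the medians per kb were 32.1 CPM for complex I, 21.4 CPM for complex II, 60.1 CPM for complex III, 108 CPM for complex IV and 64 CPM for complex V. In both genomes, complex IV had the highest median. The lowest nuclear medians, those of complexes I and II, include most of the assembly factors.

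**Figure D1:**
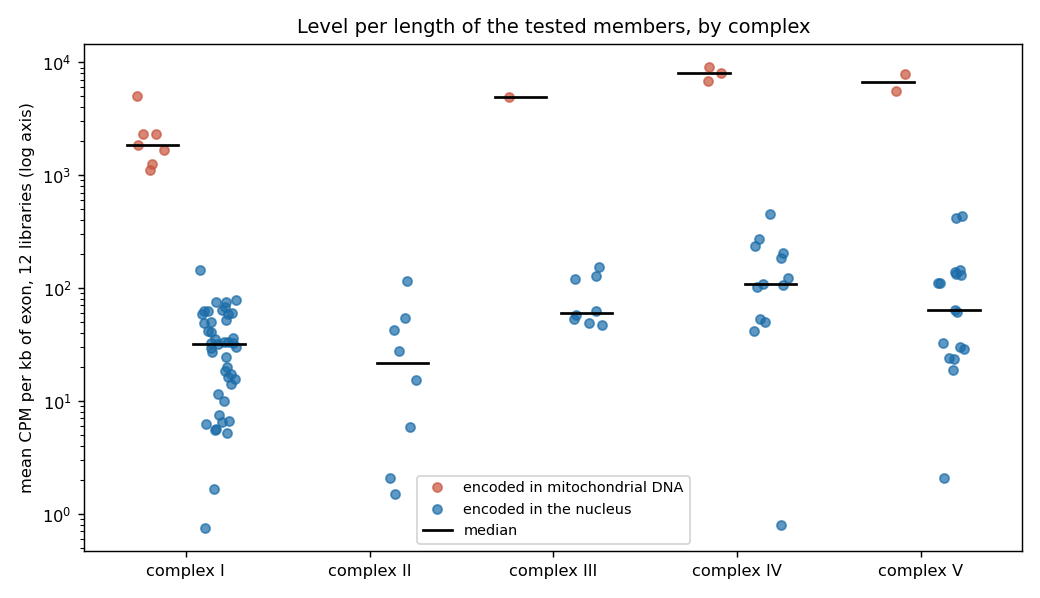
Mean level of each tested member over the 12 libraries, in CPM per kilobase of exon on a log axis, by complex and genome, with bars at the medians. The 13 mitochondrial members lie between 1120.2 and 9095 CPM per kb, above all 90 nuclear members.

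By level per length, the lowest nuclear member was an assembly or coupling factor in complexes I, II and V. In complex III both the highest and the lowest were subunits. In complex IV Cox8a was highest, at 452 CPM per kb, and the tissue isoform Cox6a2 lowest, at 0.786 CPM per kb. In complex I the highest nuclear member was Ndufa2, an accessory subunit, at 144 CPM per kb, and the lowest was the assembly factor Ndufaf3. Complex II was led by Sdhd, one of its membrane anchors, at 115 CPM per kb, followed by the iron-sulphur subunit Sdhb at 54.1 CPM per kb, the flavoprotein Sdha at 42.7 CPM per kb and the other anchor Sdhc at 27.7 CPM per kb. Its lowest member was the assembly factor Sdhaf3, at 1.48 CPM per kb. In complex III the hinge protein Uqcrh was highest, at 154 CPM per kb, and the core protein Uqcrc2 lowest, at 47.3 CPM per kb. In complex V the catalytic beta subunit Atp5b was highest, at 438 CPM per kb, and Atp5s, a coupling factor, lowest, at 2.08 CPM per kb.

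Tissue-restricted isoforms were at or near 0, and the widely expressed form of each subunit was present in every library. Cox4i1, the ubiquitous form of subunit 4, lay between 257 and 402 CPM, while Cox4i2, known from lung and from cells under hypoxia, had 18 counts in all 12 libraries together and none in 4 of them. Ndufa4, a subunit of complex IV in spite of its name, lay between 203 and 368 CPM, and its hypoxia-linked relative Ndufa4l2 had 24 counts in total. Cox6a1 exceeded the muscle form Cox6a2 by 300.5-fold per length, and Cox7a2 exceeded the muscle form Cox7a1 by 277-fold. Cox8a had 54445 counts in total against 1 for the muscle form Cox8b and 0 for the testis form Cox8c, for which a floor of 3 counts over all libraries puts Cox8a at least 18148-fold higher in counts. Cox6a2 was the only one of these isoforms to pass the filter. The 8 members that did not pass it were Cox4i2, Cox6b2, Cox7a1, Cox7b2, Cox8b, Cox8c, Ndufa4l2 and a second row named Atp5o (ENSMUSG00000116933), which was at 0 in all libraries and overlaps the expressed Atp5o.

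The mitochondrial members varied more between libraries than the nuclear members. The SD of log2(CPM + 1) over the 12 libraries had a median of 0.29 for the 13 mitochondrial members and 0.13 for the 90 nuclear members, against 0.17 for all 13608 genes tested. It was lowest for mt-Co1 (0.12) among mitochondrial members and highest for mt-Nd5 (0.46). Among nuclear members it ran from 0.06 for Ndufb5 to 0.38 for Ndufa5, both accessory subunits of complex I. For comparison, the median over the 256 genes whose mean reached 500 CPM was 0.14.

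The first comparison asked whether dox changed these genes in either population. The summed normalised level of the 13 mitochondrial members was 46268, 50321 and 44512 CPM in NLS-N-VEGF no dox and 57929, 49219.7 and 48102 CPM in NLS-N-VEGF dox. It was 40274, 50721 and 50518 CPM in N-VEGF no dox and 53055, 60889 and 53024 CPM in N-VEGF dox. The libraries with dox overlapped those without in NLS-N-VEGF cells, and in N-VEGF cells all 3 libraries with dox were above all 3 without. Between same-labelled libraries, the log2 difference of the sum was 0.13 ± 0.18 (SD, n = 3) in NLS-N-VEGF cells and 0.24 ± 0.16 (SD, n = 3) in N-VEGF cells, and it was above 0 in 5 of the 6 pairs. Without library 1 of N-VEGF no dox, the N-VEGF value was 0.17 ± 0.14 (SD, n = 2).

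The sum of the nuclear members was 10949, 10948 and 11352 CPM in NLS-N-VEGF no dox and 11207, 10543 and 10687 CPM in NLS-N-VEGF dox. It was 13203, 10794 and 11124 CPM in N-VEGF no dox and 11116, 11163 and 11736 CPM in N-VEGF dox. The log2 differences were -0.04 ± 0.06 and -0.04 ± 0.18 (SD, n = 3 each), and the groups overlapped in both populations. The N-VEGF value was negative through library 1 of N-VEGF no dox alone: the pairs gave -0.25, 0.05 and 0.08, and without that library the value was 0.06 ± 0.02 (SD, n = 2). The ratio of the mitochondrial to the nuclear sum was 4.23, 4.6 and 3.92 in NLS-N-VEGF no dox, 5.17, 4.67 and 4.5 with dox, 3.05, 4.70 and 4.54 in N-VEGF no dox and 4.77, 5.45 and 4.52 with dox.

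**Figure D2:**
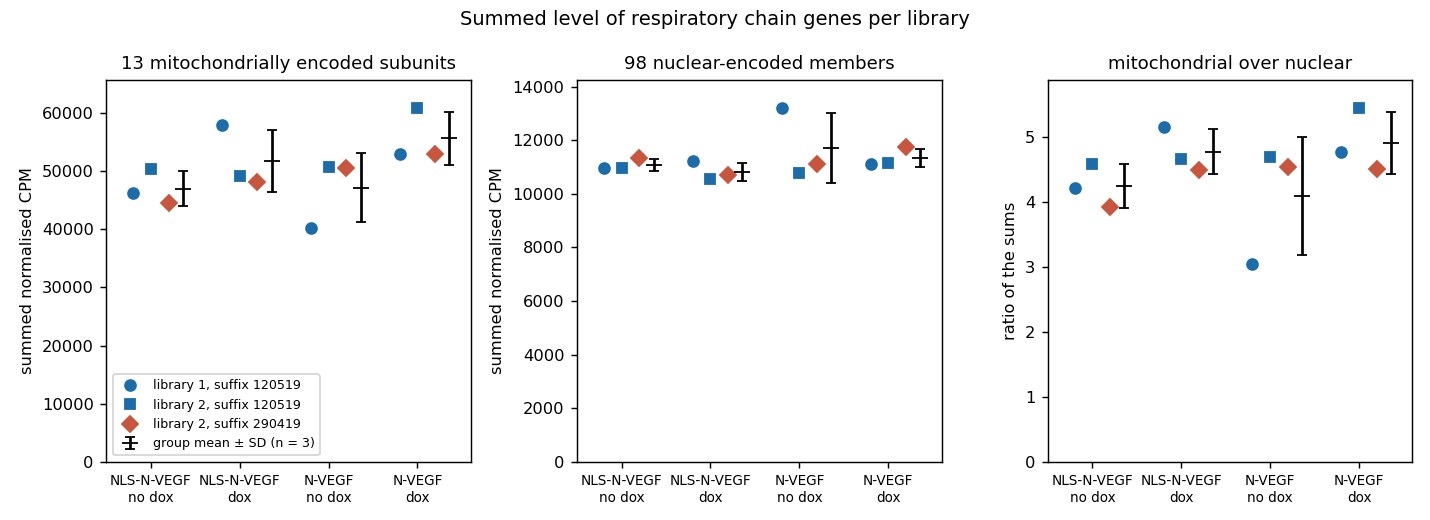
Summed normalised CPM of the 13 mitochondrial and the 98 nuclear members and the ratio of the sums, for each library by group, with the group mean ± SD (n = 3). Library 1 of N-VEGF no dox has the lowest mitochondrial sum (40274 CPM) and the highest nuclear sum (13203 CPM).

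No single member passed the test of dox. With edgeR's quasi-likelihood test and Benjamini-Hochberg adjustment over 13608 genes, 0 of 103 members tested were called in NLS-N-VEGF cells, where 0.022% of all genes were, and 0 in N-VEGF cells, where 0.0367% were. At an unadjusted p under 0.05 there was 1 member in each population, mt-Nd3 in NLS-N-VEGF cells and mt-Nd4 in N-VEGF cells. For the mean dox effect of both populations 0 members were called, against 0.0588% of all genes, and 4 members had an unadjusted p under 0.05. Shares of all genes at that unadjusted p are not given here or below. Such counts of members are therefore not read as a result about them. DESeq2 called 0 members in each of these comparisons.

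Most mitochondrial estimates lay above 0 and the nuclear ones lay around 0. In NLS-N-VEGF cells 12 of 13 mitochondrial members had a log2 fold change above 0, with a median of 0.20, and 65 of 90 nuclear members were below 0, with a median of -0.03. In N-VEGF cells 12 of 13 mitochondrial members were above 0, with a median of 0.33, and 51 of 90 nuclear members were below 0, with a median of -0.01. The median over all genes was 0.00 in both. Without library 1 of N-VEGF no dox, the mitochondrial median in N-VEGF cells was 0.18 and the nuclear one 0.05, and the mitochondrial one was also 0.18 without library 2_120519 of N-VEGF dox.

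By complex, the mean dox effect of mitochondrial members had a median of 0.24 in complex I, 0.32 for mt-Cytb, 0.01 in complex IV and 0.30 in complex V. The nuclear medians of the complexes lay between -0.03 and -0.00. Without library 1 of N-VEGF no dox, the mitochondrial medians were 0.27, 0.20, 0.08 and 0.20 in the same order, and the nuclear ones lay between 0.01 and 0.03, on the other side of 0. The 14 nuclear assembly factors had a median of 0.07, with 10 above 0. In complex IV the estimates were 0.01 (SE 0.08) for mt-Co1, 0.28 (SE 0.14) for mt-Co2 and 0.00 (SE 0.09) for mt-Co3, its 3 core subunits, and none passed the threshold. Without the same library these were -0.00, 0.16 and 0.08.

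mt-Nd4, a proton-pumping membrane subunit of complex I, had the smallest p of all members for the mean dox effect. Its level was 2845, 3030.1 and 2581 CPM in NLS-N-VEGF no dox against 4115, 3445 and 3086 CPM in NLS-N-VEGF dox, and 1999.8, 3130.5 and 3044 CPM in N-VEGF no dox against 3354, 4092 and 3254 CPM in N-VEGF dox. It was higher with dox in 6 of 6 same-labelled pairs, and the groups did not overlap in either population. The mean log2 fold change was 0.36 (SE 0.12, 95% interval 0.13 to 0.59), with an unadjusted p of 0.0103 and an adjusted p of 1.0 in edgeR.

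mt-Nd2, another membrane subunit of complex I, was 2221, 2438 and 1694 CPM in NLS-N-VEGF no dox and 3276, 2725 and 2262 CPM in NLS-N-VEGF dox. mt-Nd2 was 1646, 2350.1 and 2251 CPM in N-VEGF no dox and 2465, 3115 and 2249 CPM in N-VEGF dox. Its mean log2 fold change was 0.35 (edgeR, SE 0.13, unadjusted p 0.0208), and it was higher with dox in 5 of 6 pairs. mt-Atp6, a membrane subunit of the ATP synthase, had a mean log2 fold change of 0.28 (edgeR, SE 0.11, unadjusted p 0.0328), and mt-Cytb one of 0.32 (edgeR, SE 0.14, unadjusted p 0.0386), with 6 of 6 pairs higher. The mean effects without library 1 of N-VEGF no dox were 0.27 for mt-Nd4, 0.19 for mt-Atp6 and 0.20 for mt-Cytb.

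**Figure D3:**
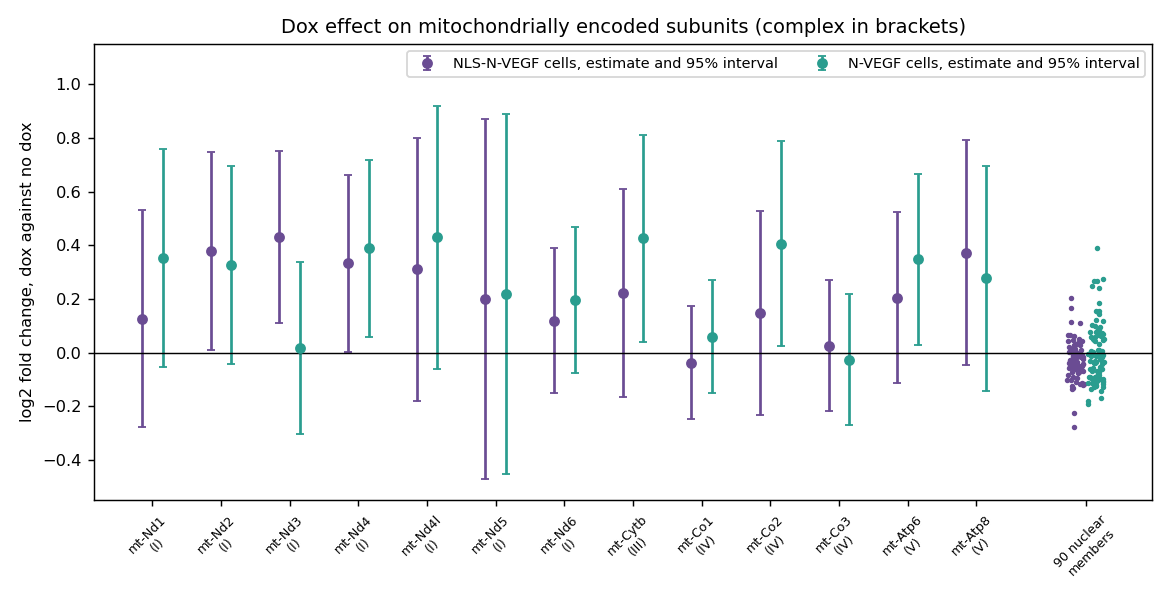
Log2 fold change of dox against no dox for the 13 mitochondrial members (points with 95% intervals) and the 90 nuclear members (dots), in NLS-N-VEGF and N-VEGF cells. The mitochondrial estimates have medians of 0.20 and 0.33, and none passed the threshold on adjusted p.

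Same-labelled libraries deviated together from their group means, and the replicate label was therefore also fitted as a block. Under this block 0 members were called in NLS-N-VEGF cells (0.125% of all genes called), 0 in N-VEGF cells (0.11%) and 0 for the mean dox effect (0.566%). For the mean dox effect all 13 mitochondrial estimates were above 0 there, with a median of 0.29, and 10 had an unadjusted p under 0.05. These 10 are not independent, because neighbouring mitochondrial RNAs share their origin, and the share of all genes at that p is not given here. The smallest adjusted p was that of mt-Nd4, 0.152 by edgeR with the block. One nuclear member, the assembly factor Ndufaf4, had an unadjusted p under 0.05 in that fit.

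Under other settings a few mitochondrial members were called for the mean dox effect. With no filter beyond 1 count in any library, 3 members were called, namely mt-Nd4 (edgeR adjusted p 0.0135), mt-Nd2 (0.0198) and mt-Nd4l (0.00919). With the libraries of suffix _120519 only, mt-Nd4l was called (log2 fold change 0.47, edgeR adjusted p 0.0448). The shares of all genes called under these settings are not given here. These calls are therefore not read as particular to the mitochondrial members.

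The second comparison asked whether the dox effects differed between the populations. For the difference of the dox effects 0 members were called, as were 0% of all genes by edgeR, and DESeq2 called 0 members. No member had an unadjusted p under 0.05 in edgeR. The medians were -0.08 over the mitochondrial and -0.01 over the nuclear members, and 0.02 and -0.07 without library 1 of N-VEGF no dox. The smallest p was that of mt-Nd3, a small membrane subunit of complex I, whose log2 fold change with dox was 0.43 in NLS-N-VEGF cells and 0.02 in N-VEGF cells. Their difference was 0.41 (edgeR, SE 0.23, unadjusted p 0.0995). mt-Nd3 was 456, 503 and 456 CPM in NLS-N-VEGF no dox, 681, 673 and 551 CPM in NLS-N-VEGF dox, 729, 477 and 587 CPM in N-VEGF no dox and 485, 622 and 709 CPM in N-VEGF dox. In NLS-N-VEGF cells the groups did not overlap, and the value of 729 CPM came from the library that stood apart. Without that library the effect of dox on mt-Nd3 in N-VEGF cells was 0.19 and the difference 0.24 (SE 0.21). The next members were Ndufs6 and Atp5mpl, accessory subunits of complexes I and V, with differences of -0.19 (SE 0.12) and -0.22 (SE 0.14).

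The populations were also compared directly. NLS-N-VEGF against N-VEGF cells gave 0 members called with dox and 0 without dox (0% of all genes in both by edgeR, and 0.0147% with dox under the block, with 0 members). No member had an unadjusted p under 0.05 in edgeR without the block, and DESeq2 called 0 members in both. With dox, 82 of 90 nuclear members had an estimate below 0, with a median log2 difference of -0.06, and 10 of 13 mitochondrial members did, with a median of -0.09. The same-labelled pairs differed in sign, with medians of 0.02, -0.07 and -0.15 over the nuclear and 0.19, -0.28 and -0.11 over the mitochondrial members. Without dox the nuclear median was -0.05, with 62 of 90 below 0, and the mitochondrial median was 0.00. Without library 1 of N-VEGF no dox these last medians were 0.01 and -0.12. Over all genes the medians were 0.00 with dox and 0.00 without. The members with the smallest p were Sdhaf3 with dox (log2 difference 0.38, SE 0.21) and mt-Nd3 without dox (-0.34, SE 0.16). The value of mt-Nd3 was -0.17 (SE 0.16) without library 1 of N-VEGF no dox.

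The third comparison set the label suffixes against each other, with the group means in the model. It gave the only calls among the members: 34 of 103 had an adjusted p under 0.05, a share of 33.0%, where 45.6% of all 13608 genes were called. There were 24 members higher and 10 lower with suffix _290419, where 22.2% of all genes were higher and 23.5% lower. The calls were 4 of 13 mitochondrial members (30.8%) and 30 of 90 nuclear members (33.3%), shares below that of all genes. The replicate block gave 36 members and DESeq2 29. Without library 1 of N-VEGF no dox there were 52 members called, 37 higher and 15 lower, where 51.6% of all genes were called, and the mitochondrial share then lay above that of all genes, with 8 of 13 (61.5%), and the nuclear share below it, with 44 of 90 (48.9%). Without library 2_290419 of N-VEGF dox there were 22. For this fit, the block and DESeq2 the shares of all genes called are not given here. A change in the count there is therefore not read as one about the members.

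**Figure D4:**
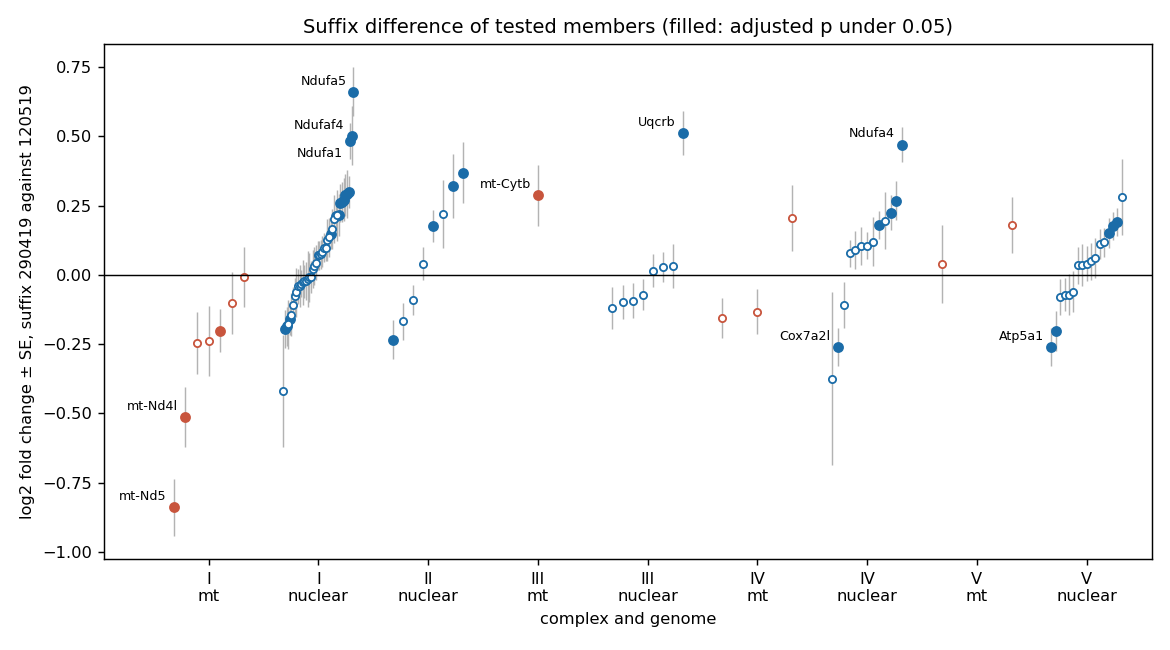
Log2 fold change ± SE of suffix _290419 against _120519 for the 103 tested members, sorted within complex and genome. Filled points passed an adjusted p of 0.05: 4 mitochondrial members, with mt-Nd5 lowest at -0.84, and 30 nuclear members, with Ndufa5 highest at 0.66.

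Among mitochondrial members, 3 subunits of complex I fell with suffix _290419 and cytochrome b rose. All 7 estimates of mitochondrial complex I were below 0, with a median of -0.24, and those of mt-Nd5, mt-Nd4l and mt-Nd6 passed the threshold in edgeR. mt-Cytb was the one mitochondrial member called higher. The 3 subunits of complex IV (-0.16, 0.21 and -0.13 for mt-Co1, mt-Co2 and mt-Co3) and the 2 of complex V (0.18 and 0.04 for mt-Atp6 and mt-Atp8) were not called by edgeR, and DESeq2 called mt-Co1 (log2 fold change -0.17, adjusted p 0.0133). Without library 1 of N-VEGF no dox, edgeR also called mt-Nd1 (-0.34), mt-Nd2 (-0.33), mt-Nd4 (-0.19) and mt-Co1 (-0.18) lower, while mt-Nd3 stood at 0.06 and mt-Atp8 at -0.06. The ends of the 4 called coding sequences are shown because they place them on the genome, where mt-Nd5, mt-Nd6 and mt-Cytb are neighbours. They are the last 21 bases of each GENCODE M21 transcript, build GRCm38, 5′ to 3′ on the coding strand, with the bases of the encoded stop codon in capitals.
mt-Nd4l, MT:10153-10173, plus strand: ctcaacctactacaatgcTAA
mt-Nd5, MT:13545-13565, plus strand: tactcaattaatctcgagTAA
mt-Nd6, MT:13552-13572, minus strand: atcgagattactcgagatTAA
mt-Cytb, MT:15268-15288, plus strand: aaatactaaaattatatccaT
The mt-Cytb transcript ends on the first base of its stop codon, which is completed by the poly(A) tail, a common feature of mammalian mitochondrial mRNAs. mt-Nd6 is the one protein-coding gene on the other strand, and its last 14 bases lie opposite the last 14 bases of mt-Nd5. The library kit does not mark strand, so reads in that overlap cannot be assigned to either gene by their direction. Along the rest of mt-Nd6, too, RNA of the opposite strand cannot be told from its own mRNA. The part of such RNA in the mt-Nd6 value was not tested.

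mt-Nd5, a proton-pumping subunit at the far end of the membrane arm of complex I, showed the largest change of any member. Its levels were 2128, 2310.3 and 1214 CPM in NLS-N-VEGF no dox and 2737, 2303 and 1453 CPM in NLS-N-VEGF dox. Its levels were 1806, 2428 and 1487 CPM in N-VEGF no dox and 2583, 2889 and 1182 CPM in N-VEGF dox. The 4 libraries of suffix _290419 (1182 to 1487 CPM) all lay below the 8 of suffix _120519 (1806 to 2889 CPM). The log2 fold change was -0.84 (edgeR, SE 0.10, adjusted p 1.04e-05).

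mt-Nd4l, a small membrane subunit of complex I, was 523, 550.0 and 376 CPM in NLS-N-VEGF no dox, 679, 651 and 467 CPM in NLS-N-VEGF dox, 397, 559 and 448 CPM in N-VEGF no dox and 719, 789 and 383 CPM in N-VEGF dox. It was lower with suffix _290419 within each of the 4 groups, with overlap of the ranges through library 1 of N-VEGF no dox. The log2 fold change was -0.51 (edgeR, SE 0.11, adjusted p 0.00121). mt-Nd4, which shares a transcript with mt-Nd4l and overlaps its end, had a log2 fold change of -0.10 (SE 0.11) and was not called with all libraries.

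mt-Nd6 lay between 529 and 685 CPM with suffix _290419 and between 581 and 800.0 CPM with suffix _120519. Its log2 fold change was -0.20 (edgeR, SE 0.08, adjusted p 0.0471), and it lost the call in 8 of the 12 fits that left out 1 library. mt-Cytb was 4717, 4983 and 5889 CPM in NLS-N-VEGF no dox, 6293, 5503 and 6390.3 CPM in NLS-N-VEGF dox, 3094, 5122 and 6265 CPM in N-VEGF no dox and 6037, 6531 and 6879 CPM in N-VEGF dox. It was higher with suffix _290419 in all 4 groups, the ranges overlapped, and the log2 fold change was 0.29 (edgeR, SE 0.11, adjusted p 0.0427). That call was lost in 7 of the 12 fits that left out 1 library.

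The ratio of 1 pair of neighbouring genes, mt-Nd5 and mt-Cytb, separated the suffixes without overlap. This ratio sets the largest fall against the one mitochondrial rise that was called. It is therefore no further support for those results, and mt-Nd5 alone also separated the suffixes. The ratio of mt-Nd5 to mt-Cytb in CPM was 0.451, 0.464 and 0.206 in NLS-N-VEGF no dox, 0.435, 0.418 and 0.227 with dox, 0.584, 0.474 and 0.237 in N-VEGF no dox and 0.428, 0.442 and 0.172 with dox. It was thus between 0.172 and 0.237 in the libraries of suffix _290419 and between 0.418 and 0.584 in the others. The sum of the 13 members did not separate them, at 44512 to 53024 CPM against 40274 to 60889 CPM.

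Other RNAs of the mitochondrial genome were lower with suffix _290419 too. Of 18 mitochondrial tRNAs tested, 14 fell and 1 rose, with a median log2 fold change of -1.26, and both mitochondrial rRNAs fell (mt-Rnr1 by 0.63 and mt-Rnr2 by 0.89 on the log2 scale). The mitochondrial tRNAs summed to 79.0 to 99.4 CPM with suffix _290419 and 118 to 161 CPM with suffix _120519. The rRNAs summed to 504 to 885 CPM and 697 to 1310.2 CPM. tRNAs are short and lack long poly(A) tails, so a kit of this kind recovers few of them. Their part in the change of the mitochondrial mRNAs was not tested.

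**Figure D5:**
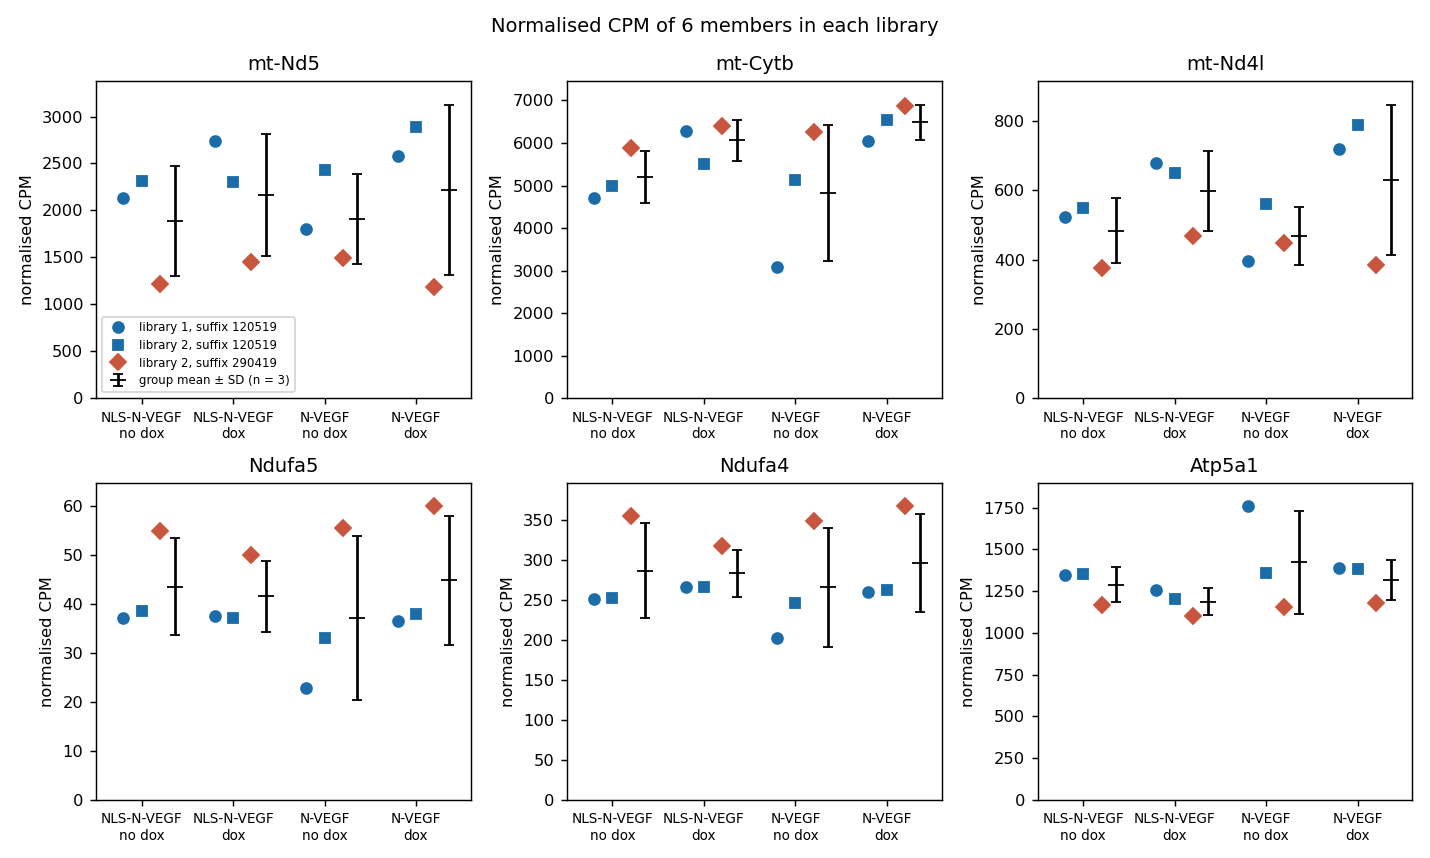
Normalised CPM of mt-Nd5, mt-Cytb, mt-Nd4l, Ndufa5, Ndufa4 and Atp5a1 in each library by group, with the group mean ± SD (n = 3). The red diamonds of suffix _290419 lie below the blue points of suffix _120519 for mt-Nd5 and Atp5a1 and above them for Ndufa5 and Ndufa4.

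Of the 90 nuclear members, 23 were higher with suffix _290419 (25.6%, against 22.2% of all genes) and 7 lower (7.78%, against 23.5%), and their median log2 fold change was 0.06, where that of all genes was 0.01. The share of higher calls was thus near that of all genes, and the share of lower calls below it. By complex, in groups too small to set against these shares, 12 of 44 members rose and 3 fell in complex I, 3 of 8 rose and 1 fell in complex II, 1 of 8 rose in complex III, 4 of 13 rose and 1 fell in complex IV, and 3 of 17 rose and 2 fell in complex V. Complex I had medians of opposite sign in its genomes, at -0.24 over the 7 mitochondrial and 0.07 over the 44 nuclear members. So did complex III, at 0.29 for mt-Cytb and -0.03 over its nuclear members, and complex IV, at -0.13 and 0.11. In complex V both medians were above 0, at 0.11 and 0.04. The 14 assembly factors had 6 higher and 1 lower, with a median of 0.20, and the 75 nuclear subunits tested outside the tissue isoforms had 17 higher and 6 lower, with a median of 0.04.

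The largest nuclear increases were in accessory subunits. Ndufa5, an accessory subunit of the matrix arm of complex I, was 37.1, 38.7 and 55 CPM in NLS-N-VEGF no dox, 37.7, 37.2 and 50 CPM in NLS-N-VEGF dox, 22.9, 33 and 55.6 CPM in N-VEGF no dox and 36.5, 38 and 60 CPM in N-VEGF dox. Its suffix ranges did not overlap, and the log2 fold change was 0.66 (edgeR, SE 0.09, adjusted p 2.24e-05). Uqcrb, the subunit of complex III that contacts the ubiquinone site, was 51.3, 50.5 and 67.5 CPM in NLS-N-VEGF no dox, 50.7, 53.1 and 59.9 CPM in NLS-N-VEGF dox, 36.4, 43.3 and 71.3 CPM in N-VEGF no dox and 46.6, 49.8 and 72 CPM in N-VEGF dox. Its log2 fold change was 0.51 (SE 0.08). It was the one member of complex III to be called, while the other 7 nuclear members of that complex lay between -0.12 and 0.03.

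Ndufa4 of complex IV lay between 318 and 368 CPM with suffix _290419 and between 203 and 267 CPM with suffix _120519, with no overlap and a log2 fold change of 0.47 (SE 0.06). Ndufa1, an accessory subunit of complex I encoded on the X chromosome, lay between 37.7 and 43 CPM against 22.7 and 32.6 CPM, with no overlap and a log2 fold change of 0.48 (SE 0.07). Ndufb3, also of complex I, lay between 38.5 and 45.4 CPM against 32.5 and 37.1 CPM, with a log2 fold change of 0.30 (SE 0.06). All of these were higher with suffix _290419 in each of the 4 groups.

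Assembly factors of complexes I and II were among the increases. Ndufaf4 lay between 23.1 and 30.6 CPM with suffix _290419 and between 13 and 23 CPM with suffix _120519, with a log2 fold change of 0.50 (SE 0.11), and within NLS-N-VEGF dox the difference was close to 0, at 22.8 and 23.0 against 23.1 CPM. Sdhaf4, which assists the flavoprotein of complex II, lay between 15.3 and 16.2 CPM against 7.29 and 14.2 CPM, with a log2 fold change of 0.37 (SE 0.11). Sdhaf3, an assembly factor for the iron-sulphur subunit, had a log2 fold change of 0.32 (SE 0.11) and lost the call in 5 of the 12 fits that left out 1 library, as it did under DESeq2 (adjusted p 0.0627).

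The 7 nuclear decreases were smaller in size than the increases named so far. Atp5a1, the alpha subunit of the ATP synthase, was 1345, 1355 and 1166 CPM in NLS-N-VEGF no dox, 1259, 1204 and 1099.7 CPM in NLS-N-VEGF dox, 1759, 1358 and 1152 CPM in N-VEGF no dox and 1386, 1382 and 1176 CPM in N-VEGF dox. Its log2 fold change was -0.26 (edgeR, SE 0.07, adjusted p 0.00651), with no overlap of the suffixes. Its catalytic partner Atp5b, at 1711 to 1838 CPM against 1758 to 2399.7 CPM, had a log2 fold change of -0.07 (SE 0.07) and was not called. Cox7a2l, a factor that joins complexes III and IV into supercomplexes, lay between 153 and 169.8 CPM against 173 and 238 CPM, with a log2 fold change of -0.26 (SE 0.07). Sdhc, a membrane anchor of complex II, lay between 77.3 and 82.3 CPM against 86.5 and 119 CPM, with a log2 fold change of -0.23 (SE 0.07), while Sdha (-0.09), Sdhb (-0.17) and Sdhd (0.04) were not called. Atp5g2, one of the genes for the c-ring subunit, changed by -0.20 (SE 0.07) and Ndufb4 of complex I by -0.19 (SE 0.07), and each lost the call in 4 of the 12 fits that left out 1 library.

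Of the widely expressed and tissue forms, Ndufa4 and Cox7a2 were called with the suffix. Cox4i1 (-0.11, SE 0.08), Cox6a1 (0.12, SE 0.09), Cox6a2 (-0.37, SE 0.31) and Cox8a (0.09, SE 0.07) were not called, and Cox7a2 rose by a log2 fold change of 0.18 (edgeR, SE 0.05, adjusted p 0.00761). Within suffix _120519, library 2 against library 1 gave 0 members called in edgeR (0% of all 13387 genes tested) and 0 in DESeq2, with 13 members at an unadjusted p under 0.05. The medians were 0.17 over the mitochondrial and -0.09 over the nuclear members, and 0.05 and -0.02 without library 1 of N-VEGF no dox. With no filter beyond 1 count in any library, edgeR called 2 members there.

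Promoters of the nuclear members were searched for the binding letters of factors known to act on respiratory genes, in RefSeq windows from 250 bases before to 50 bases after the start site on GRCm38.p6. Windows were found for 78 of the 98 nuclear members by symbol. The NRF1 core CGCATGCG, which reads the same on both strands, was in 11 of the 78 genes (14.1%), against 2.07% of all 27025 genes with a window and 4.35% of the 9870 tested genes with one. The YY1 letters ATGGCGGC were in 10.3% of the members, 2.61% of all genes and 5.81% of those tested. The ETS letters CCGGAAGT were in 6.41%, 4.31% and 9.29%, and the hypoxia response element core ACGTG in 23.1%, 21.8% and 29.3%, each counted on either strand. Among the 74 tested members with a window, the set to place beside the tested genes, the shares were 14.9% (NRF1), 10.8% (YY1), 6.76% (ETS) and 21.6% (hypoxia response element core). A match is a description of the sequence and not a bound site.

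The NRF1 core was in the windows of 3 of 20 members higher with suffix _290419 and of 1 of 5 lower ones, so it occurred in both directions. The 4 matches are shown with their surroundings, 30 bases each, 5′ to 3′ along the gene, with the core in capitals.
Ndufa8, chr2:36049329-36049358, minus strand: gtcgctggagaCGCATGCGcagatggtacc
Ndufaf4, chr4:24897960-24897989, plus strand: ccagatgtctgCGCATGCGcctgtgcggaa
Atp5l, chr9:44920963-44920992, minus strand: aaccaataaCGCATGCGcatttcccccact
Atp5g2, chr15:102671070-102671099, minus strand: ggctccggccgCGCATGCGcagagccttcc
Ndufa8, a complex I subunit, and Atp5l, the g subunit of the ATP synthase, had log2 fold changes of 0.22 (SE 0.07) and 0.15 (SE 0.05), set beside 0.50 for Ndufaf4 and -0.20 for Atp5g2. Nrf1 itself, the gene of the factor, rose with suffix _290419 by a log2 fold change of 0.19 (edgeR, SE 0.06, adjusted p 0.0138).

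Related genes outside the 111 were counted by the same test, in which 22.2% of all genes were higher and 23.5% lower with suffix _290419. Of 9 nuclear regulators of respiratory genes tested, 2 rose and 3 fell with suffix _290419. The risers were Nrf1 and Pprc1, and the others were Ppargc1b (-0.64), a coactivator of mitochondrial biogenesis, Gabpa (-0.27) and Yy1 (-0.13). Of 31 genes of mitochondrial transcription and RNA processing 5 rose and 2 fell, with Ssbp1, the mitochondrial single-strand DNA binding protein, highest at 0.56 and the elongation factor Tefm lowest at -0.40. Of 37 assembly factors and electron carriers outside the naming rule 5 rose and 4 fell, among them cytochrome c (Cycs, 0.32) and the translational activator of mt-Co1, Taco1 (-0.53). Of 13 genes of the citric acid cycle 2 rose and 1 fell. Of 6 hypoxia-linked mitochondrial genes 0 rose and 5 fell, with a median of -0.57, namely Pdk1 (-0.95), Mxi1 (-0.65), Bnip3 (-0.65), Bnip3l (-0.49) and Lonp1 (-0.23). Called genes made up 5 of 9, 7 of 31, 9 of 37, 3 of 13 and 5 of 6 of these lists, against 45.6% of all genes, and nothing particular to a list is read from such counts. For the mean dox effect edgeR called no gene of these 5 lists, and their medians lay between 0.01 and 0.04. The muscle marker Tnnt2 was 1.69 higher on the log2 scale with suffix _290419, Cd68 was 0.83 higher, Csf1r was lower, and the fibroblast markers were split, with 4 of 10 higher and 4 lower. Their part in the suffix results was not tested.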

How the data were processed

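Deposited values are raw counts per gene. Per the labels and the study's methods, the authors prepared libraries with a TruSeq RNA v2 kit, trimmed reads with Trim Galore (cutadapt 1.10), aligned them to GRCm38 with TopHat2 2.1.0 and Bowtie2 2.2.6 and counted with HTSeq 0.6.1. The strand option of the counting is not given in the sources used here. Multigene families could lose or split reads in this step, and 16 members share over 10% of their exon bases with another gene. The table also names 13 rows by the same rule that are not protein coding, which were left out.

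Groups, library numbers and suffixes came from the sample titles. Counts were tested with edgeR 4.0.16 (R 4.3.3): filterByExpr by group, TMM, a quasi-likelihood model of 4 group means over 12 libraries, and two-sided F tests adjusted by Benjamini-Hochberg over 13608 genes at 0.05. The suffix was tested as a term beside the group means, and library 2 against 1 within suffix _120519. SEs were derived from the F statistic, and intervals are 1.96 SE. Such intervals use the normal distribution and are narrower than the F test implies with so few libraries. For dox in N-VEGF cells, those of mt-Cytb, mt-Co2 and mt-Atp6 left out 0 at unadjusted edgeR p-values of 0.0521, 0.0578 and 0.0529. The script was tested on simulated data.

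Same-labelled libraries of different groups correlated in their deviations from group means over genes whose mean reached 1 CPM (18 of 18 pairs above 0.1, range 0.371 to 0.816, against a mean of -0.24 over 36 differently labelled pairs). Of the 36 differently labelled pairs, 12 were also above 0.1, with a highest value of 0.651. Deviations from a group mean sum to 0 within the group. The negative mean over these pairs therefore largely follows from the positive same-labelled values and is no separate support for pairing. The number and suffix in the titles were used to pair the libraries. These correlations do not show pairing by library number apart from that by suffix. A shift by library number common to the groups was tested within suffix _120519, where edgeR called 0% of 13387 genes. No libraries were duplicates: the closest replicates had a chi-square of 1.76 per gene.

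The members and gene lists were chosen with earlier results of these data known. All 13 mitochondrial members were named, with the isoform families and complex II. Further named were up to 8 called members in each direction by size of change whose mean reached 1 CPM, the 3 smallest p-values where fewer than 3 were called, and the highest and lowest level per length in each complex. Ndufa8, Atp5l, Ndufb5 and the genes named outside the 111 were chosen after their values were seen. The ratio of mt-Nd5 to mt-Cytb was not named by these rules either. Alternatives were DESeq2 1.42.0, another scaling, 2 filters, the block, the suffix as a covariate, subsets of libraries, library sizes without mitochondrial genes and leaving out each library. A level of 0 was set against a floor of 3 counts, which covers counting error only.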

Additional observations from a re-analysis of the deposited data

Results flagged for a closer look

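Within the libraries of each suffix, values far from the rest were looked for in 32 items (summed levels, ratios and named members), which gave 64 groups, of which chance would flag about 1 in 20. There were 15 such values, and 12 of them came from library 1 of N-VEGF no dox. In the 8 libraries of suffix _120519 that library was the highest for the summed nuclear members (13203 CPM, with the next at 11207), the ratio of mt-Nd5 to mt-Cytb (0.584), Atp5a1 (1759 CPM), Cox7a2l (238 CPM), Sdhc (119 CPM) and Atp5g2 (319.9 CPM). It was the lowest for the summed mitochondrial rRNAs (697 CPM), mt-Nd1 (2982 CPM), mt-Co2 (3426 CPM), Ndufa5 (22.9 CPM), Ndufa4 (203 CPM) and Sdhaf4 (7.29 CPM). In the 4 libraries of suffix _290419, NLS-N-VEGF no dox was the lowest for the ratio of mitochondrial to nuclear members (3.92), mt-Nd2 (1694 CPM) and mt-Atp8 (846 CPM).

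A signal stood outside the members used. Ndufb1-ps, which the table lists as a bidirectional promoter lncRNA and which the protein-coding rule left out, had 632 to 879 counts per library, with a median of 759.5, well above the floor of 3 counts. The other 12 rows of this kind, processed pseudogenes, had at most 1 count in any library.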

How the results depend on the processing

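Over the alternatives, the counts of members called kept their side in all but a few cases. For the mean dox effect 3 members were called with no filter beyond 1 count and 1 with suffix _120519 only, and for library 2 against 1 within that suffix 2 were called with no such filter. The cause was not tested. For the suffix, 11 members were called in the libraries without dox only and 11 in the N-VEGF libraries only (34 in all libraries), where fewer libraries were fitted. Leaving out 1 library gave 22 to 52 members for the suffix, lowest without the suffix _290419 library of N-VEGF dox, and 0 for the other comparisons. The replicate block gave 36 members for the suffix and 0 elsewhere, and it changed no other call. Shares of all genes called under most of these settings are not given here, so the counts are not read as particular to the members.

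The mitochondrial median of the mean dox effect ran from 0.27 to 0.32 over 8 alternatives and from 0.19 to 0.34 when 1 library was left out, and the nuclear one from -0.05 to -0.02 and from -0.05 to 0.01. For the difference of the dox effects the mitochondrial median ran from -0.20 to 0.06 when 1 library was left out. Summed levels moved by less than the spread between pairs under all 3 alternatives. With 3 libraries a group, dox effects of the size estimated for single mitochondrial members did not pass the adjusted threshold. Depth limits the tissue isoforms, which had at most 6 counts in any library where they did not pass the filter.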
